A study of Danio rerio with 12 samples.

Results

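CYP26B1 (ENSDARG00000077121) and CYP2R1 (ENSDARG00000056587) are the cytochrome P450 genes examined here, 2 of the 33737 Ensembl gene identifiers in the table of raw counts. CYP26B1 was taken by its symbol and CYP2R1 by its identifier. Both were selected on their counts across the stages, with earlier results of these data known, so their levels are given as a description, with no test. Both were among the 16612 genes that passed the filter on low counts.

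Caudal fins were taken from adult AB-Tu zebrafish (Danio rerio) aged 8 to 18 months, and the labels name no transgene or mutation. The 4 groups were uncut fins, called 0 days post amputation (0 dpa), and fins at 2, 3 and 10 dpa. Each group had 3 libraries, and each library pooled 6 fish. The labels do not tie pools of different stages to the same fish, and p-values cover only the variation among pools.

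Retinoic acid is a signalling form of vitamin A. Retinol is oxidised to retinal by retinol dehydrogenases such as RDH10, retinal is oxidised to retinoic acid by ALDH1A enzymes, and the CYP26 enzymes hydroxylate retinoic acid and so remove it. Retinoic acid acts through nuclear receptors of the RAR family, which pair with RXR receptors on DNA. In zebrafish fin regeneration, retinoic acid signalling is required for the blastema, the mass of proliferating cells from which the fin regrows, and it also acts on osteoblasts, the bone-forming cells. Zebrafish embryos that lack Cyp26b1 form too much bone.

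Vitamin D is activated by a chain of P450 enzymes. In human and mouse CYP2R1 is the main enzyme that adds the side-chain hydroxyl group which makes calcidiol, the circulating form. CYP27B1 turns calcidiol into calcitriol, the hormone, and CYP24A1 inactivates it. Calcitriol binds the vitamin D receptor VDR, which also pairs with RXR. CYP26B1 and CYP2R1 are both enzymes of the endoplasmic reticulum that receive electrons from the reductase POR.

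The libraries held 8833337 to 22843743 counts. Levels are in CPM (counts scaled by edgeR to library sizes adjusted with TMM), as mean ± SD over n = 3 libraries. Since CPM is not divided by transcript length, levels are compared between stages and not between genes. Log2 changes are edgeR's estimates. Their SE was derived as the absolute log2 change divided by the square root of the F statistic of edgeR's quasi-likelihood test. A gene other than CYP26B1 and CYP2R1 is said to rise or fall by that test. The threshold is a Benjamini-Hochberg adjusted p under 0.05 over all 16612 genes. The fin label was checked against sums of marker genes. In every library the matched epidermal (7), fin mesenchyme (9) and osteoblast (6) markers summed to at least 28000, 1310 and 199 CPM. The 5 liver markers, which also had counts, together stayed between 0.242 and 1.38 CPM.

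CYP26B1 was highest at 10 dpa and lowest at 2 dpa. In the uncut fin its level was 235, 210 and 221 CPM in replicates 1, 2 and 3, from 2870, 2428 and 1898 counts. At 2 dpa it was 39.9, 80.7 and 55.3 CPM, from 792, 1213 and 707 counts. The 2 dpa libraries all lay below the uncut fin, and replicate 2, the highest of them, stood below the lowest 3 dpa library. At 3 dpa the level was 163, 117 and 146 CPM, and at 10 dpa it was 267, 257 and 323 CPM. In increasing order the stage means were 58.6 ± 20.6 CPM at 2 dpa, 142 ± 23.5 CPM at 3 dpa, 222 ± 12.7 CPM at 0 dpa and 282 ± 35.5 CPM at 10 dpa. No neighbours in that order overlapped.

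Against the uncut fin, the log2 change of CYP26B1 was -1.92 ± 0.25 at 2 dpa, a level 3.79-fold lower. It was -0.65 ± 0.24 at 3 dpa and 0.35 ± 0.24 at 10 dpa. From 2 to 3 dpa the log2 change was 1.27 ± 0.24, and from 3 to 10 dpa it was 0.99 ± 0.24. The comparisons with 0 dpa share the 3 uncut libraries. Separation without overlap was common among all tested genes, at 54.6% for 2 against 0 dpa, 56.4% for 3 against 0 dpa, 33.9% for 10 against 0 dpa, 18.3% for 3 against 2 dpa, 39.5% for 10 against 3 dpa and 41.7% for 10 against 2 dpa. In size, 15.0% of tested genes had a larger log2 change than CYP26B1 at 2 dpa, 53.4% at 3 dpa and 55.8% at 10 dpa, each against 0 dpa. CYP26B1 was selected on these counts, so the shares only describe it.

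CYP2R1 had a deeper trough at 2 dpa and stood above the uncut fin later on average. Its level was 31.2, 30.8 and 46.8 CPM in the uncut fin, from 381, 356 and 402 counts. At 2 dpa it was 3.62, 4.53 and 0.703 CPM, from 72, 68 and 9 counts. Every 2 dpa library was thus far below every other library of the series, and replicate 3 was the lowest. At 3 dpa the level was 102, 35.2 and 99.8 CPM, and at 10 dpa it was 114, 69.0 and 79.8 CPM. Replicate 2 of 3 dpa lay within the range of the uncut fin, whereas replicates 1 and 3 of that stage lay above it.

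The stage means of CYP2R1 were 2.95 ± 2.00 CPM at 2 dpa, 36.3 ± 9.10 CPM at 0 dpa, 78.8 ± 37.8 CPM at 3 dpa and 87.6 ± 23.6 CPM at 10 dpa. In that order 2 and 0 dpa did not overlap, 0 and 3 dpa overlapped, and so did 3 and 10 dpa. The log2 change against the uncut fin was -3.59 ± 0.52 at 2 dpa, 1.12 ± 0.46 at 3 dpa and 1.27 ± 0.46 at 10 dpa. From 2 to 3 dpa it was 4.71 ± 0.54, a level 26.1-fold higher than in the 2 dpa libraries with their few counts. In that comparison 0.0421% of tested genes had a larger change. The share was 3.43%, 32% and 8.79% at 2, 3 and 10 dpa against 0 dpa, and 80.5% at 10 against 3 dpa. CYP2R1 was selected on these counts, so the shares only describe it. Without replicate 3 of 2 dpa the change from 2 to 3 dpa was 4.22, and without replicate 2 of 2 dpa it was 5.08. Between 3 and 10 dpa the log2 change of 0.16 ± 0.45 became -0.18 when replicate 2 of 3 dpa was left out.

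**Figure D1:**
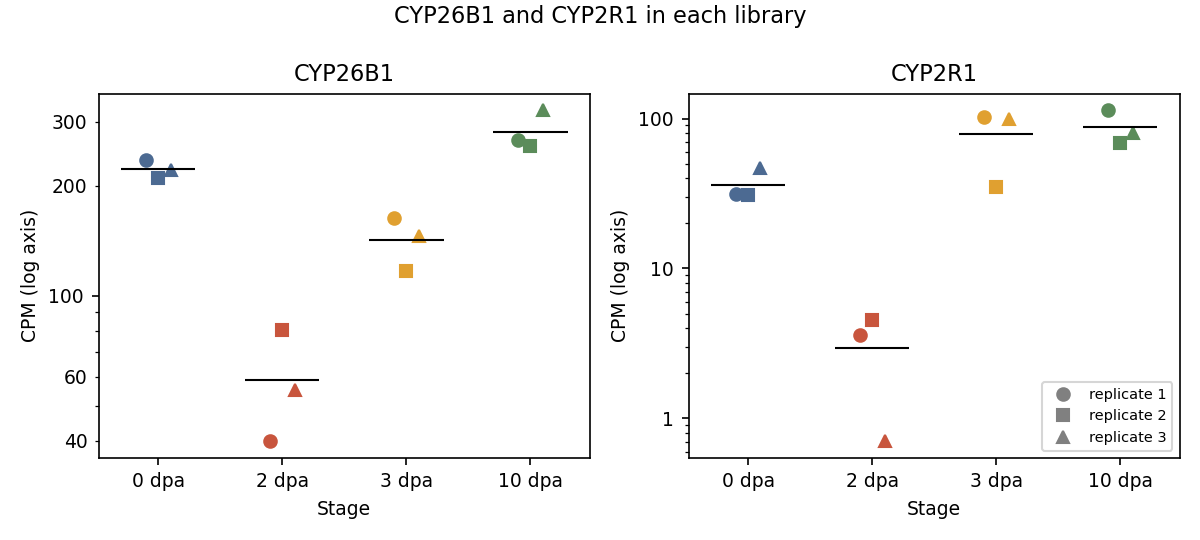
CPM of CYP26B1 and CYP2R1 (log axes) in each of the 12 libraries by stage, with the symbol shape giving the replicate number and black lines the stage means. CYP26B1 means run from 58.6 CPM at 2 dpa to 282 CPM at 10 dpa, and CYP2R1 means from 2.95 CPM at 2 dpa to 87.6 CPM at 10 dpa.

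Both genes were lowest at 2 dpa. At 3 dpa CYP26B1 was still below all uncut libraries, whereas CYP2R1 overlapped them or stood above them, and for CYP2R1 the 3 and 10 dpa libraries did not separate. Replicates varied more for CYP2R1, with a coefficient of variation from 25.1% at 0 dpa to 67.7% at 2 dpa, against 5.71% at 0 dpa to 35.2% at 2 dpa for CYP26B1. Over the 12 libraries their log2 CPM had a Pearson correlation of 0.841, in libraries that share their stages. By this correlation CYP2R1 ranked 630 among the 13542 genes with a symbol compared with CYP26B1.

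The genes with a symbol most like CYP26B1 over the 12 libraries, among 13542 compared, were sema3aa, a guidance cue of the semaphorin family (r = 0.979), C1QTNF2 (0.977), the transcription factor ZEB1 (0.975), LOXL1, which cross-links elastin (0.974), and fgd5a (0.973). The level of sema3aa averaged 108, 15.5, 45.5 and 113 CPM at 0, 2, 3 and 10 dpa. Most like CYP2R1 were the transcription factor foxd1 (r = 0.983), the engulfment receptor MEGF10 (0.983), APCDD1L (0.981), serpinf1, which codes for pigment epithelium-derived factor (0.979), and CRACD (0.978). MEGF10 averaged 14.6, 1.41, 16.0 and 26.8 CPM over the stages in the same order. These genes were picked for the likeness, so the correlations carry no test.

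In bulk tissue, fewer cells of a type and less RNA per cell cannot be told apart. The summed RNA levels of cell type markers differed between stages for most lists, and cell numbers were not measured. Each sum mainly follows the markers with the most counts, so single markers can move otherwise. Pigment cell markers summed to 283 to 410 CPM at 0 dpa, 14.0 to 23.1 at 2 dpa, 19.9 to 64.1 at 3 dpa and 411 to 497 at 10 dpa, with 8 of 9 tested markers lower and 1 higher at 2 dpa. Glial markers ran from 99.9 to 122 CPM at 0 dpa, 34.7 to 45.0 at 2 dpa, 25.0 to 27.9 at 3 dpa and 71.1 to 95.0 at 10 dpa (4 of 5 tested lower at 2 dpa, FOXD3 at 0 in all libraries). The median log2 change of the 5 tested glial markers was -4.54 at 2 dpa, a larger fall than that of their sum. Endothelial markers ran from 57.4 to 65.5 CPM, 18.5 to 37.2, 59.9 to 98.8 and 73.5 to 103 (2 of 3 tested lower at 2 dpa). Osteoblast markers ran from 239 to 1040 CPM, 199 to 1480, 3750 to 4310 and 2930 to 5450 (0 of 5 tested passed at 2 dpa by edgeR, by DESeq2 or at an unadjusted p under 0.05, and 3 were higher at 3 dpa). Fin mesenchyme markers ran from 1310 to 2200 CPM, 4470 to 10400, 19300 to 41900 and 7090 to 12600 (6 of 8 tested higher and 1 lower at 2 dpa). Epidermal markers ran from 63100 to 84100 CPM, 41000 to 64900, 28000 to 29000 and 50400 to 58500 (3 of 7 tested lower at 2 dpa). Macrophage markers ran from 4170 to 5930 CPM, 578 to 936, 977 to 1660 and 1930 to 3310 (4 of 10 tested lower and 2 higher at 2 dpa). Neutrophil markers ran from 69.9 to 82.2 CPM, 17 to 42.5, 20.8 to 48.6 and 54.5 to 103 (2 of 4 tested lower at 2 dpa). Muscle markers ran from 9.69 to 26.8 CPM, 9.72 to 16.5, 14 to 17.2 and 6.81 to 29.7 (1 of 3 tested higher and 1 lower at 2 dpa). Of all tested genes, 24.1% were lower and 22.9% higher at 2 dpa, and 22.8% were higher at 3 dpa. The part of these cell types in the courses of CYP26B1 and CYP2R1 was not tested.

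How the counting treated overlapping genes bears on CYP2R1. In RefSeq's GRCz12tu annotation cyp2r1 overlaps calca, lies between sox6 and pde3b, and no row of the table carried the symbol calca. The flanking genes had smaller changes. SOX6 averaged 65.3, 42.6, 75.5 and 59.3 CPM at 0, 2, 3 and 10 dpa, with a log2 change of -0.61 ± 0.24 at 2 dpa (edgeR adjusted p = 0.0480). PDE3B averaged 37.6, 22.1, 40.3 and 34.3 CPM, with a log2 change of -0.77 ± 0.21 at 2 dpa (edgeR adjusted p = 0.00751). No protein-coding gene overlaps or adjoins cyp26b1 in that annotation, where its neighbours on both sides are long non-coding RNAs.

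The lists written for the retinoic acid pathway matched 72 rows besides CYP26B1, and 50 passed the filter. At 2 dpa 8 of the 50 rose and 19 fell, with a median log2 change of -0.27, where 47.1% of all tested genes passed (22.9% higher, 24.1% lower, median 0.03). At 3 dpa 10 rose and 18 fell (median -0.15), where 44.1% of all genes passed (22.8% higher, 21.3% lower, median 0.05). At 10 dpa 3 rose and 3 fell (median -0.13), where 9.40% of all genes passed (6.62% higher, 2.78% lower).

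ALDH1A2, the retinal dehydrogenase of the blastema, was high where CYP26B1 was low. Its level was 14.0, 10.0 and 11.9 CPM at 0 dpa, 137, 174 and 101 CPM at 2 dpa, 94.3, 113 and 108 CPM at 3 dpa, and 20.1, 16.6 and 20.9 CPM at 10 dpa. All libraries of 2 and 3 dpa lay above all libraries of 0 and 10 dpa. ALDH1A2 rose by a log2 change of 3.52 ± 0.24 at 2 dpa (edgeR adjusted p = 4.86e-07) and 3.13 ± 0.23 at 3 dpa (edgeR adjusted p = 1.51e-06). A second enzyme of that step, ALDH1A3, did not pass at any stage and averaged 40.3 ± 9.07, 36.7 ± 9.39, 57.4 ± 9.37 and 53.1 ± 7.62 CPM at 0, 2, 3 and 10 dpa.

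A ratio of counts within a library does not depend on the scaling between libraries. The log2 ratio of CYP26B1 to ALDH1A2 counts was 4.07, 4.38 and 4.21 at 0 dpa and -1.78, -1.10 and -0.86 at 2 dpa. It was 0.79, 0.05 and 0.43 at 3 dpa and 3.73, 3.94 and 3.95 at 10 dpa. All ratios at 2 dpa lay below all ratios at 3 dpa, and these lay below all ratios at 0 and 10 dpa. The stage means of this ratio were 4.22 ± 0.16, -1.25 ± 0.48, 0.42 ± 0.37 and 3.87 ± 0.12 (SD, n = 3). A count of 0.5 was added to both genes. The ratio is not per transcript length, so only its shift between stages can be read.

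The other synthesis genes were mixed. Of the 13 tested genes for synthesis and retinal reduction, 2 rose and 5 fell at 2 dpa, where 47.1% of all tested genes passed. At 3 dpa 3 of the 13 rose and 3 fell, where 44.1% of all tested genes passed. At 10 dpa 0 of the 13 passed by edgeR or DESeq2 (3 at an unadjusted p under 0.05). Of all tested genes, 9.40% passed at 10 dpa by edgeR. The rises at 3 dpa were in ALDH1A2, RDH10 and dhrs4, and 1 of the 13 rose without 0 dpa replicate 2, 3 dpa replicate 2 or 3, or 10 dpa replicate 2, as with RLE scaling, no filter on low counts or only the stages compared in the fit. RDH10 (ENSDARG00000058730), which makes retinal, averaged 4.61 ± 1.90 CPM at 0 dpa and 8.89 ± 0.760 CPM at 2 dpa (edgeR adjusted p = 0.0151), a call lost without 0 dpa replicate 1 (0.0508) or replicate 2 (0.0717). Its call at 3 dpa (7.91 ± 1.45 CPM, edgeR adjusted p = 0.0393) was lost in 9 of 17 alternatives, with an adjusted p of up to 0.165. The other RDH10 row (ENSDARG00000012369) averaged 2.00 ± 0.689 and 4.07 ± 2.26 CPM and did not pass. The short-chain dehydrogenase dhrs4 averaged 1.48 ± 0.736 CPM at 0 dpa and 3.09 ± 0.244 CPM at 3 dpa, with an edgeR adjusted p of 0.0469 at 3 dpa that was above 0.05 in 12 of 17 alternatives (up to 0.179). DHRS3 (ENSDARG00000044982), which turns retinal back into retinol, fell from 3.44 ± 0.647 to 0.833 ± 0.701 CPM (log2 change -1.99 ± 0.51) and stood at 5.43 ± 0.584 and 6.38 ± 1.61 CPM at 3 and 10 dpa. It rose between 2 and 3 dpa (log2 change 2.66 ± 0.50, edgeR adjusted p = 0.0114). Whether this call holds under the alternatives was not checked for the single gene. Over all genes 627 were called in this comparison, and 36 with only its stages fitted. The other DHRS3 row (ENSDARG00000044803) averaged 7.53 ± 1.47, 4.22 ± 1.79, 10.3 ± 1.88 and 13.3 ± 3.77 CPM, with an edgeR adjusted p of 0.0476 at 2 dpa that was above 0.05 in 12 of 17 alternatives (up to 0.170). RDH14 (ENSDARG00000039299) fell from 14.7 ± 2.14 to 3.65 ± 0.589 CPM at 2 dpa and 5.05 ± 0.840 CPM at 3 dpa. The other RDH14 row (ENSDARG00000002467) fell from 16.4 ± 0.915 to 8.74 ± 0.670 CPM at 2 dpa. DHRS9, which oxidises retinol in mammals, fell from 27.1 ± 9.21 CPM to 8.68 ± 6.55 CPM at 2 dpa and 7.72 ± 1.57 CPM at 3 dpa.

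**Figure D2:**
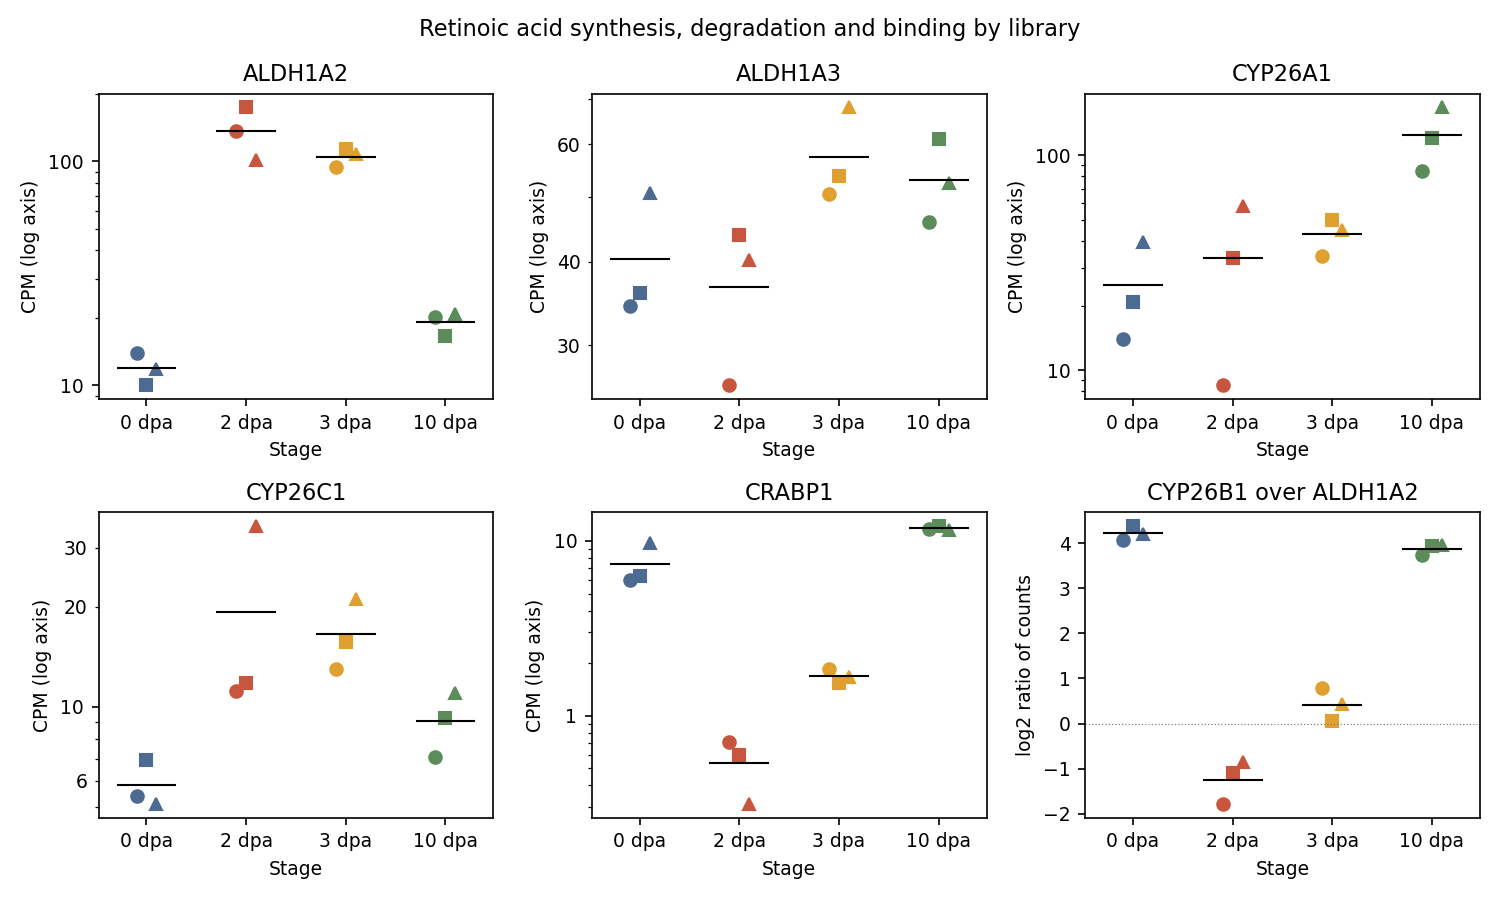
CPM (log axes) of ALDH1A2, ALDH1A3, CYP26A1, CYP26C1 and CRABP1 in each library by stage, and the log2 ratio of CYP26B1 to ALDH1A2 counts, with circles, squares and triangles for replicates 1, 2 and 3 and black lines for stage means. ALDH1A2 means rise from 12.0 to 137 CPM at 2 dpa, and the ratio goes from 4.22 at 0 dpa to -1.25 at 2 dpa and back to 3.87 at 10 dpa.

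The paralogs of CYP26B1 had other courses. CYP26C1, which also degrades retinoic acid, was at 5.41, 6.92 and 5.12 CPM at 0 dpa, 11.2, 11.8 and 34.9 CPM at 2 dpa, 13.0, 15.7 and 21.0 CPM at 3 dpa, and 7.09, 9.25 and 11.0 CPM at 10 dpa. It rose by a log2 change of 1.72 ± 0.40 at 2 dpa (edgeR adjusted p = 0.00306) and 1.51 ± 0.40 at 3 dpa (edgeR adjusted p = 0.00750). Without 2 dpa replicate 3, its highest library, the change at 2 dpa was 0.99 (edgeR adjusted p = 0.0110). CYP26A1, which in vertebrate embryos is induced by retinoic acid, was at 14.0, 20.8 and 39.6 CPM at 0 dpa, 8.50, 33.3 and 58.3 CPM at 2 dpa, 34.1, 50.2 and 45.1 CPM at 3 dpa, and 84.1, 120 and 167 CPM at 10 dpa. All 10 dpa libraries were above all others. CYP26A1 rose by a log2 change of 2.32 ± 0.54 at 10 dpa (edgeR adjusted p = 0.0182), but not without 0 dpa replicate 1 (0.0856) or 2 (0.0916), without 10 dpa replicate 2 (0.0579) or 3 (0.0658), or with no filter on low counts (0.0926). CYP26B1 counts made up 83.2% to 92.4% of the counts of the 3 CYP26 genes in the uncut libraries. Their share was 66.9%, 64.1% and 37.2% in the 2 dpa libraries, 63.9% to 77.6% at 3 dpa and 64.4% to 74.6% at 10 dpa. Counts are not per transcript length, so only the shift of this share between stages can be read. The lower share at 10 dpa than in the uncut fin went with higher CYP26A1 counts there, since CYP26B1 itself stood higher.

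Cellular binding proteins of retinoic acid moved in opposite directions. CRABP1 (ENSDARG00000035904) fell from 7.36 ± 2.10 CPM to 0.539 ± 0.203 CPM at 2 dpa (log2 change -3.70 ± 0.32, edgeR adjusted p = 2.08e-06) and 1.68 ± 0.151 CPM at 3 dpa, and stood at 11.8 ± 0.346 CPM at 10 dpa. CRABP2 (ENSDARG00000030449), which in mammals delivers retinoic acid to its receptors, rose from 1.76 ± 0.289 CPM to 9.77 ± 4.62 CPM at 2 dpa (log2 change 2.48 ± 0.39, edgeR adjusted p = 1.80e-04) and 13.6 ± 5.00 CPM at 3 dpa. At 10 dpa CRABP2 averaged 5.12 ± 0.914 CPM, with an edgeR adjusted p of 0.0255 that was between 0.0528 and 0.110 without 0 dpa replicate 1 or 2 or 10 dpa replicate 2 or 3.

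Of the 12 tested binding proteins and receptors, 1 rose and 5 fell at 2 dpa, where 47.1% of all tested genes passed. At 3 dpa 2 of the 12 rose and 6 fell, where 44.1% of all tested genes passed. The receptor raraa fell from 7.65 ± 1.69 CPM to 0.778 ± 0.0221 CPM at 2 dpa (log2 change -3.29 ± 0.35, edgeR adjusted p = 8.53e-06) and 1.15 ± 0.158 CPM at 3 dpa. Its level was 3.23 ± 1.21 CPM at 10 dpa (edgeR adjusted p = 0.0222, and 0.0690 to 0.102 without 0 dpa replicate 1 or 2 or 10 dpa replicate 1 or 2). The receptor rarab averaged 29.1 ± 3.39 CPM at 0 dpa and 19.3 ± 3.37 CPM at 3 dpa (edgeR adjusted p = 0.0186, and 0.0599 to 0.0765 without 0 dpa replicate 1 or 2 or 3 dpa replicate 1 or 3). The RARG rows did not pass at any stage: the one with more counts (ENSDARG00000034117) averaged 181 ± 22.5, 186 ± 6.74, 210 ± 29.8 and 206 ± 22.7 CPM. Among the RXR partners, rxrbb fell from 106 ± 17.3 to 46.5 ± 4.78 CPM at 2 dpa, rxrgb from 20.4 ± 5.98 to 4.30 ± 1.87 CPM and rxrga from 9.70 ± 1.94 to 4.46 ± 0.118 CPM. RXRA (ENSDARG00000057737) averaged 39.9, 57.1 and 65.5 CPM at 0, 2 and 3 dpa (edgeR adjusted p = 0.0126 at 3 dpa, and 0.0523 without 0 dpa replicate 3).

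Among genes known to respond to retinoic acid in vertebrates, 0 of 11 tested rose and 7 fell at 2 dpa by edgeR and by DESeq2, with a median log2 change of -0.88. At 3 dpa 0 rose and 5 fell (6 by DESeq2), but 1 fell without 0 dpa replicate 1, 3 without 0 dpa replicate 2, 2 without 3 dpa replicate 2 and 3 without 3 dpa replicate 3. At 10 dpa 1 rose, CYP26A1, whose call is described above. Of all tested genes, 22.9% rose and 24.1% fell at 2 dpa, and 22.8% rose and 21.3% fell at 3 dpa. At 10 dpa 6.62% of all tested genes rose. The transglutaminase TGM2 (ENSDARG00000074094) fell from 23.1 ± 1.2 CPM at 0 dpa to 3.59 ± 3.29 CPM at 2 dpa (log2 change -2.69 ± 0.44, edgeR adjusted p = 2.85e-04). Its level was 29.5 ± 7.14 CPM at 3 dpa. The homeobox gene hoxb1b fell from 1.73 ± 0.748 to 0.269 ± 0.120 CPM at 2 dpa, and meis3 from 2.54 ± 0.855 to 0.418 ± 0.165 CPM. This list includes both DHRS3 rows, described above. ALDH1A3, the RARG rows and the RDH10 row that did not pass fall outside the rule for named genes and were chosen after their values were seen, as were cyp27a1.1 and POR (ENSDARG00000059035).

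Of 7 tested vitamin A uptake and storage genes, 2 rose and 2 fell at 2 dpa, where 47.1% of all tested genes passed. The retinol-esterifying enzyme lratb.1 rose from 0.736 ± 0.352 CPM to 2.72 ± 0.895 CPM at 2 dpa and 5.42 ± 1.34 CPM at 3 dpa (log2 change 2.83 ± 0.40 at 3 dpa, edgeR adjusted p = 1.09e-04). The carotenoid-cleaving oxygenase BCO2 (ENSDARG00000041715) fell from 30.1 ± 6.44 CPM to 0.476 ± 0.472 CPM at 2 dpa and 1.15 ± 1.18 CPM at 3 dpa. The other BCO2 row (ENSDARG00000055722) fell from 40.7 ± 9.76 CPM to 8.86 ± 4.53 CPM at 2 dpa. Receptor coregulators had 2 rises and 3 falls among 11 tested at 2 dpa (45.5%, against 47.1% of all tested genes). TBL1X, part of the corepressor complex, rose from 9.11 ± 2.36 to 27.5 ± 7.21 CPM, and the corepressor NCOR1 fell from 536 ± 53.7 to 299 ± 77.9 CPM. The coactivator NCOA1 averaged 148 ± 38.1 CPM at 0 dpa and 71.6 ± 27.8 CPM at 2 dpa (edgeR adjusted p = 0.0102, and 0.0546 without 0 dpa replicate 2).

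**Figure D3:**
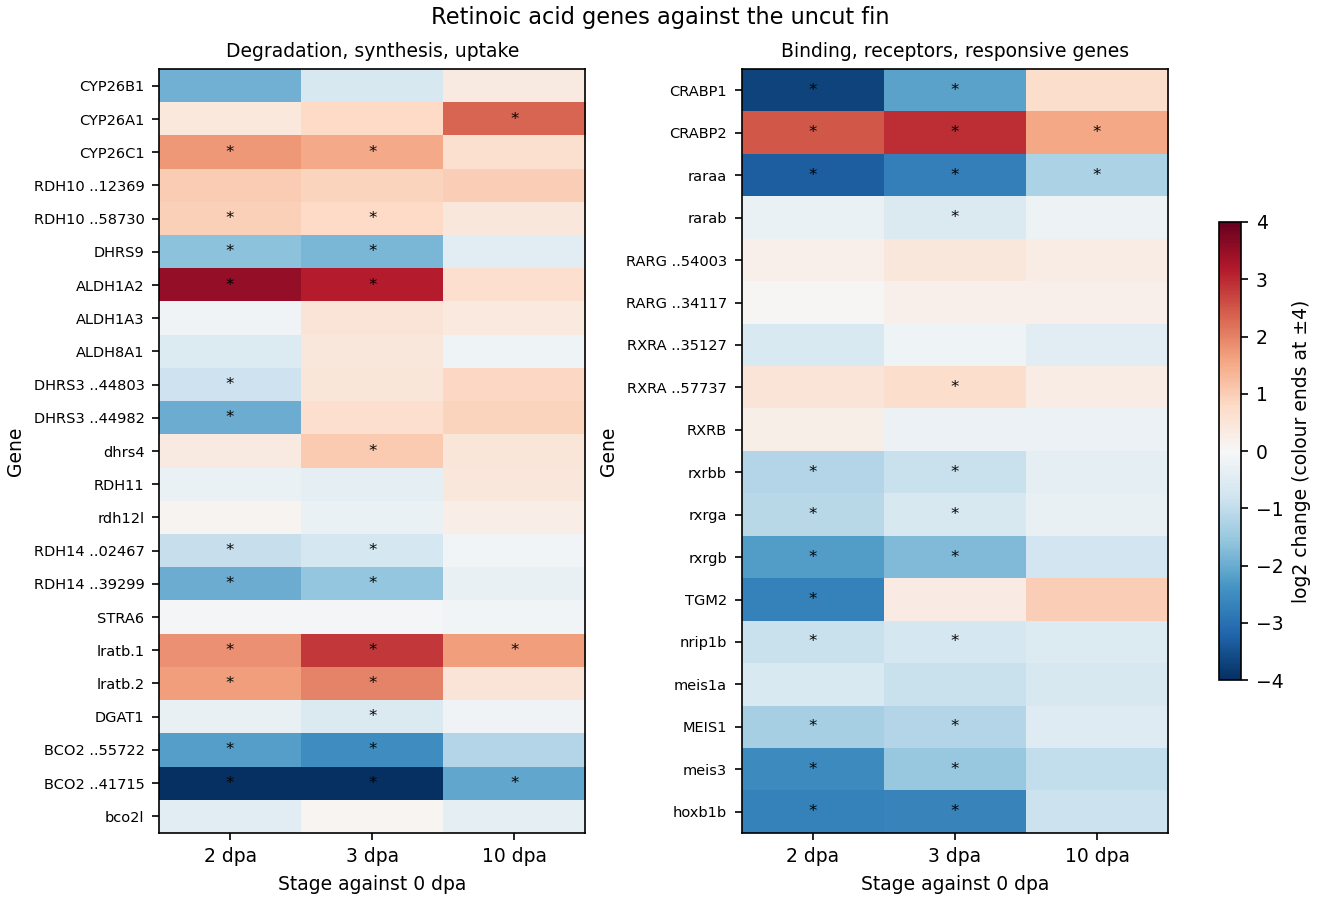
Log2 change of CYP26B1 and the tested retinoic acid genes at 2, 3 and 10 dpa against 0 dpa, coregulators other than nrip1b left out. Asterisks mark an adjusted p under 0.05 for genes other than CYP26B1, and the last digits of the identifier tell rows with 1 symbol apart. ALDH1A2 stands at 3.52 and 3.13 at 2 and 3 dpa, where CYP26B1 stands at -1.92 and -0.65.

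For vitamin D, the lists matched 35 rows besides CYP2R1, and 22 passed the filter. At 2 dpa 6 rose and 7 fell (median 0.02, with 47.1% of all genes passing), at 3 dpa 7 rose and 9 fell (median 0.03, with 44.1% of all genes passing), and at 10 dpa 3 rose and 1 fell (median -0.09, with 9.40% of all genes passing). The RXR genes stand on the retinoic acid lists too. No row was matched for CYP24A1, which is not analysed here.

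CYP27B1, which makes calcitriol, rose at 2 dpa, in the trough of CYP2R1, and also at 3 dpa, when CYP2R1 was out of its trough. Its level was 1.56, 1.90 and 2.33 CPM at 0 dpa, 3.62, 9.52 and 5.94 CPM at 2 dpa, 8.96, 7.11 and 5.71 CPM at 3 dpa, and 3.36, 4.19 and 3.93 CPM at 10 dpa. Every library after amputation lay above the uncut ones. The log2 change was 1.72 ± 0.36 at 2 dpa (edgeR adjusted p = 0.00144) and 1.91 ± 0.36 at 3 dpa (edgeR adjusted p = 7.86e-04), and 10 dpa did not pass. Of the sterol hydroxylases related to mammalian CYP27A1, cyp27a3 fell from 20.7 ± 9.25 CPM to 2.90 ± 0.782 CPM at 2 dpa and 1.98 ± 0.611 CPM at 3 dpa (log2 change -3.38 ± 0.37 at 3 dpa, edgeR adjusted p = 1.76e-05). By contrast cyp27a1.1 did not pass, at 3.24, 4.10, 4.34 and 5.35 CPM. These cyp27a genes are close paralogs, and the counting may have divided reads among them.

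The receptor VDR (ENSDARG00000070721) was at 14.5, 18.2 and 12.2 CPM at 0 dpa, 2.26, 2.66 and 2.42 CPM at 2 dpa, 1.61, 2.71 and 2.59 CPM at 3 dpa, and 7.16, 7.45 and 4.24 CPM at 10 dpa. The 2 and 3 dpa libraries overlapped and lay below the others, and all 10 dpa libraries lay below the uncut fin. VDR fell by a log2 change of -2.61 ± 0.29 at 2 dpa (edgeR adjusted p = 1.36e-05) and -2.67 ± 0.29 at 3 dpa (edgeR adjusted p = 1.70e-05). The change of -1.24 ± 0.27 at 10 dpa passed (edgeR adjusted p = 0.0136), but not without 0 dpa replicate 2 (0.0772) or 10 dpa replicate 3 (0.0580). At 3 dpa every VDR library was below all uncut ones, whereas CYP2R1 overlapped the uncut fin in replicate 2 (35.2 CPM) and lay above it in the other libraries. Zebrafish have a pair of VDR genes, and the symbol does not say which this row is.

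Other vitamin D genes had mixed courses. A list was written for response to calcitriol in mammals and for mineral balance, and membership does not establish a response to calcitriol for each gene. Of its 8 tested genes, 4 rose and 1 fell at 2 dpa, where 47.1% of all tested genes passed. At 3 dpa 5 rose and 2 fell, where 44.1% passed. The calcium pump gene atp2b1b rose from 0.525 ± 0.262 CPM to 3.26 ± 1.44 CPM at 2 dpa. The calcium-binding protein CALB2 rose from 0.134 ± 0.0857 CPM to 2.83 ± 0.376 CPM at 3 dpa (log2 change 4.39 ± 0.87, edgeR adjusted p = 0.00120). CALB1, on the same list, did not pass the filter on low counts. The phosphate hormone gene fgf23 was detected with 3, 20 and 12 counts in the uncut libraries, with 1, 0 and 0 counts at 2 dpa and with 0 in each 3 dpa library. SC5D, a sterol desaturase of the cholesterol pathway that yields the vitamin D precursor, averaged 5.89 ± 0.562 CPM at 0 dpa and 11.8 ± 4.03 CPM at 2 dpa (edgeR adjusted p = 0.0174, 0.0633 without 0 dpa replicate 1 and 0.0850 without 2 dpa replicate 1). The endocytic adaptor dab2 fell from 2.49 ± 1.15 to 0.507 ± 0.132 CPM at 2 dpa.

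Besides CYP26B1 and CYP2R1 the table held 60 cytochrome P450 rows, of which 27 passed the filter. At 2 dpa 4 of the 27 rose and 9 fell (48.1%, against 47.1% of all tested genes), with a median log2 change of -0.07. At 3 dpa 5 rose and 8 fell (48.1%, against 44.1% of all tested genes). At 10 dpa 1 rose, CYP26A1 (3.7%, against 9.40% of all tested genes). The shares at 2 and 3 dpa were thus near the background. From 2 to 3 dpa 0 of the 27 passed by edgeR, where 3.77% of all tested genes did (3.28% higher, 0.494% lower). By DESeq2 1 passed, lower at 3 dpa, and 1 had an unadjusted p under 0.05 in edgeR.

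Among the P450 genes that the rule names, CYP1B1 had the largest rise. CYP1B1, which oxidises steroids and retinoids, went from 0.609 ± 0.342 CPM to 6.06 ± 0.844 CPM at 2 dpa and 3.55 ± 1.52 CPM at 3 dpa (log2 change 3.24 ± 0.44 at 2 dpa, edgeR adjusted p = 6.78e-05). After it came CYP26A1, cyp39a1, CYP27B1, CYP20A1 and CYP26C1. CYP20A1 averaged 5.66 ± 2.77 CPM at 0 dpa and 18.4 ± 11.3 CPM at 3 dpa (edgeR adjusted p = 0.0261, and 0.0921 to 0.179 without 0 dpa replicate 1 or 2 or 3 dpa replicate 2). For cyp39a1 the means were 0.346 ± 0.305 and 1.45 ± 0.657 CPM (edgeR adjusted p = 0.0386, and 0.0588 to 0.112 without 0 dpa replicate 2 or 3 or 3 dpa replicate 1 or 2). By that rule, which needs 10 or more counts in all libraries of the higher stage and stages that do not overlap, the largest falls after cyp27a3 were in cyp1d1, from 3.98 ± 1.76 to 0.441 ± 0.229 CPM at 2 dpa, and in CYP7B1, an oxysterol hydroxylase, from 24.1 ± 4.89 to 4.31 ± 1.57 CPM at 3 dpa. The gene cyp27a2 fell from 60.8 ± 26.3 to 13.2 ± 2.22 CPM at 2 dpa and cyp46a1.2 from 3.50 ± 0.838 to 0.977 ± 0.665 CPM. CYP27C1, which desaturates vitamin A in zebrafish, averaged 10.3 ± 3.34 CPM at 0 dpa and 4.72 ± 1.4 CPM at 2 dpa (edgeR adjusted p = 0.0338, and 0.0613 to 0.144 without 0 dpa replicate 1 or 3 or 2 dpa replicate 1 or 2).

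P450 enzymes depend on electron donors and on haem. The list of donors held POR and CYB5R3, and also the mitochondrial ferredoxin genes and FDXR. These mitochondrial donors do not serve microsomal enzymes such as CYP26B1 and CYP2R1. Of 6 tested electron donors, 1 fell at 2 dpa, and 1 rose and 1 fell at 3 dpa. Of all tested genes, 47.1% passed at 2 dpa and 44.1% at 3 dpa. POR (ENSDARG00000059035) averaged 110 ± 40.2, 79.1 ± 17.7, 77.6 ± 9.31 and 76.8 ± 23.9 CPM at 0, 2, 3 and 10 dpa and did not pass. POR (ENSDARG00000055092) rose from 31.8 ± 7.48 to 63.0 ± 1.57 CPM at 3 dpa (log2 change 0.98 ± 0.25, edgeR adjusted p = 0.00560). CYB5R3, the cytochrome b5 reductase, fell from 120 ± 11.4 to 58.4 ± 4.37 CPM at 2 dpa. Of 10 tested genes of haem synthesis and breakdown, 4 rose at 2 dpa, but 1 without 0 dpa replicate 2 or 3 and 2 without 2 dpa replicate 1 or 3. With all libraries, 22.9% of all tested genes rose at 2 dpa. The haem oxygenase hmox2b rose from 30.1 ± 7.27 to 81.2 ± 14.6 CPM.

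**Figure D4:**
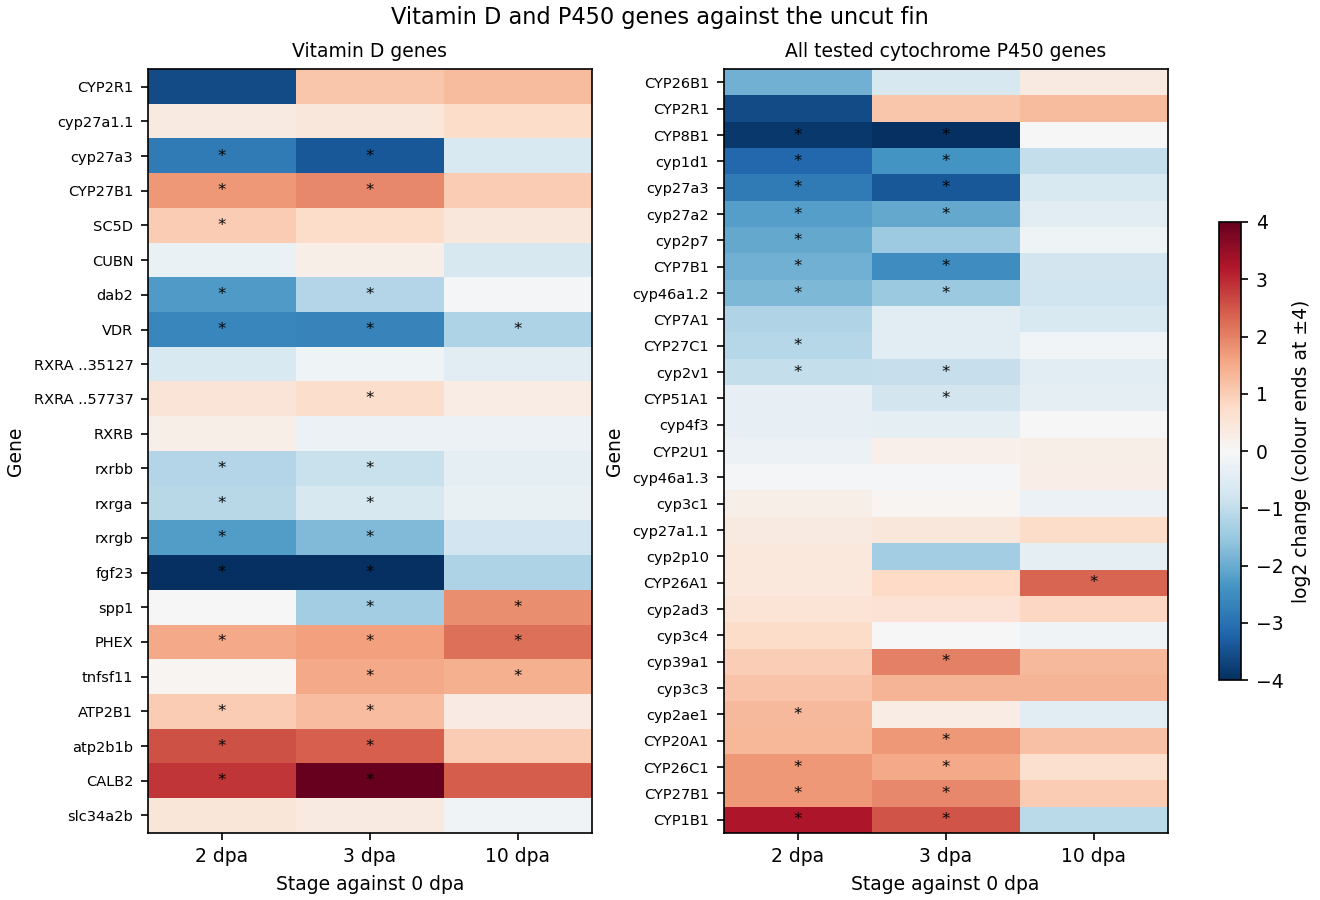
Log2 change at 2, 3 and 10 dpa against 0 dpa of CYP2R1 and the tested vitamin D genes reported here (left) and of every tested cytochrome P450 gene (right, ordered by the change at 2 dpa after CYP26B1 and CYP2R1), with asterisks for an adjusted p under 0.05 in genes other than these. CYP2R1 goes from -3.59 at 2 dpa to 1.12 at 3 dpa, while VDR stands at -2.61 and -2.67.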

How the data were processed

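Poly(A) RNA libraries (SENSE mRNA-Seq) were made from pools of 6 fins and sequenced on a SOLiD Wildfire, per the labels' protocols. The authors deposited 1 table of raw counts per Ensembl gene identifier. No label or file header names the aligner, counter, genome build or use of strand, so reads of overlapping genes or close paralogs may be shared. Symbols came from a gene name table and matched 21939 of 33737 identifiers. Of 206 written symbols, 66 matched as zebrafish symbols, 110 as capital symbols and 30 matched no row. A symbol in capitals leaves the zebrafish paralog unnamed.

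All 12 libraries entered 1 fit by stage in edgeR 4.0.16 (R 4.3.3): TMM scaling, filterByExpr with a minimum count of 10, robust quasi-likelihood test and Benjamini-Hochberg adjustment over 16612 genes. The biological coefficient of variation from the common dispersion over all genes was 26.9%. Likeness used log2 CPM with a prior count of 2. Data were simulated for 2 against 0 dpa with 16323 genes run, of which 98 were changed 2-fold and 100 were changed 4-fold. Of these, 17.3% of genes changed 2-fold and 85.0% of genes changed 4-fold were recovered. In the data 7818 genes passed in that comparison. The adjustment depends on the share of genes that change, so the simulated recovery need not hold for the data. Alternatives were DESeq2 1.42.0, RLE scaling, no filter, a replicate block, only the stages compared, and each library left out.

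The genes, lists and tests were chosen with earlier results of these data known. Named genes were CYP26B1, CYP2R1, the members of the core pathway lists that passed against 0 dpa, up to 3 with the largest changes from each other list, and 6 rises and 6 falls among other P450 genes. The rule was not followed in full for 2 lists. The coregulator NCOR1 (log2 change -0.84 at 2 dpa) was named in place of nrip1b (-0.88). Among haem genes hmox2b (1.43 at 2 dpa) was named and HMOX1 (1.5) was not. A result on the vitamin D lists is not reported here. Total counts of 8833337 to 22843743 limit precision for genes with few counts.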

Additional observations from a re-analysis of the deposited data

How the results depend on the processing

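The log2 changes of CYP26B1 and CYP2R1 moved by less than the spread between replicates in each of the 17 alternatives run. This says little where 1 library was left out, since 1 of 3 libraries can hardly move a change by more than that spread. With 1 library left out, the change at 2 dpa ranged from -2.24 to -1.70 for CYP26B1 and from -3.99 to -3.15 for CYP2R1. For CYP2R1 at 10 against 3 dpa it ranged from -0.18 to 0.37. DESeq2 called 2361 genes at 10 against 0 dpa, where edgeR called 1561, and 1019 at 3 against 2 dpa, where edgeR called 627. With only the 2 and 3 dpa libraries fitted, 36 were called. With no filter on low counts, 0 of the other P450 genes passed at 10 dpa, where 1 did with it. With 1 library left out, calls over all genes ranged from 483 (without 0 dpa replicate 2) to 2395 (without 2 dpa replicate 2) at 10 against 0 dpa, from 173 (without 3 dpa replicate 3) to 1393 (without 2 dpa replicate 2) at 3 against 2 dpa, and from 2076 to 3847 at 10 against 3 dpa. At 10 dpa they ranged from 0 to 10 for retinoic acid genes (6 with all libraries), from 2 to 6 for vitamin D genes (4 with all) and from 0 to 2 for other P450 genes. The causes were not tested. Of 116 calls of single pathway and P450 genes, 75 held in every alternative that gave the gene an adjusted p, and 41 were lost in at least 1. The fgf23 calls at 2 and 3 dpa, among those that held, had an adjusted p in 16 of the 17 alternatives. No label ties libraries of 1 replicate number to shared fish or a shared batch, though a field of the column names, whose meaning is not spelled out, follows the number. Deviations of 18 same-numbered pairs correlated at a median of 0.119 (-0.225 to 0.478; 11 over 0.1), 36 other pairs at -0.0442 (4 over 0.1), and 9 of 12 libraries correlated best with their own number, a hint from the data and not the design. The main fit left the number out because no label gives its meaning, so a factor shared by libraries of 1 number was not modelled there. With the replicate block, 8478 genes were called at 2 against 0 dpa and 2288 at 10 against 0 dpa, where the main fit called 7818 and 1561. The changes at 2 dpa with the block were -1.93 for CYP26B1 and -3.58 for CYP2R1. Few counts limit CYP2R1 at 2 dpa, where 1 library had 9.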
